A study of Homo sapiens with 27 samples.

Results

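The genes that write, read and remove DNA methylation were followed in 3 human prostate cancer cell lines carrying a control guide RNA or a guide RNA against RIPK2, the receptor-interacting kinase that relays signals from the bacterial sensors NOD1 and NOD2. The set holds 9 genes, DNMT1, DNMT3A, DNMT3B, UHRF1, TET1, TET2, TET3, TDG and MBD2, taken by their symbols from the 24379 symbols of the 22Rv1 count table, 23532 of the DU145 table and 23462 of the PC3 table. All 9 were listed in each table and all 9 passed the filter on low counts in each line. The study measured mRNA in 27 libraries, 3 for each of 9 groups. In 22Rv1 the groups were control gRNA 1 (genotype WT), RIPK2 gRNA 1 and RIPK2 gRNA 10 (genotype RIPK2 knockout). In DU145 and in PC3 they were control gRNA 1 (WT), RIPK2 gRNA 2 and RIPK2 gRNA 10 (RIPK2 knockout). No other treatment is named for any group, and the labels do not say whether a population is 1 clone or a pool of edited cells, nor whether replicates are separate cultures, so the p-values measure the spread between these libraries, which may be technical. 22Rv1, DU145 and PC3 are established lines.

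Cytosine methylation at CpG sites is copied onto the new DNA strand after replication by DNMT1, which UHRF1 brings to half-methylated CpG sites. DNMT3A and DNMT3B place methyl groups at sites that had none. TET1, TET2 and TET3 oxidise 5-methylcytosine, and TDG, a DNA glycosylase, cuts out the most oxidised forms so that base excision repair can put an unmodified cytosine back. MBD2 binds methylated CpG sites and brings the NuRD complex, which removes histone acetylation and shifts nucleosomes. Gain of methylation at single promoters and loss of it over wider regions are both known in prostate cancer.

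Positions are those of GENCODE 29 on GRCh38, the assembly of the build hg38 named in the submitters' processing notes. Each of the 9 is a protein-coding gene, and how its exons and any overlapping genes were counted is not given in the sources used here. DNMT1 lies at chr19:10133345-10231286 on the reverse strand. UHRF1 is on the same chromosome at chr19:4903080-4962154 on the forward strand. Chromosome 2 carries DNMT3A at chr2:25227855-25342590 on the reverse strand and TET3 at chr2:73986404-74108176 on the forward strand. DNMT3B is at chr20:32762385-32809356 on the forward strand, TET1 at chr10:68560656-68694482 on the forward strand and TET2 at chr4:105145875-105279816 on the forward strand. MBD2 is at chr18:54151601-54224788 on the reverse strand and TDG at chr12:103965804-103988874 on the forward strand. The annotation holds a processed pseudogene of TDG on chromosome 12 (TDGP1) and one of TET1 on chromosome 13 (TET1P1). The counts of TDG and TET1 are uncertain by whatever reads were shared with those copies. The annotation also holds an antisense gene over TET2 (TET2-AS1). The strand setting of the counter is not given in the sources used here, so reads of that antisense gene may be among the TET2 counts.

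Library totals ran from 17958558 to 20650819 counts, and levels are given as CPM, counts divided by library size and scaled with TMM factors over all 27 libraries; a count of 0 allows up to 3 counts, or 0.139 to 0.171 CPM. A gene was called changed at a Benjamini-Hochberg adjusted p under 0.05 over all genes tested, in edgeR's quasi-likelihood test. RIPK2 itself had 16.1 ± 1.16 CPM (SD, n = 3) in 22Rv1 control cells, 8.30 ± 0.592 with gRNA 1 and 5.27 ± 0.184 with gRNA 10. In DU145 its level was 41.0 ± 2.61 CPM in control cells, 11.4 ± 1.68 with gRNA 2 and 33.9 ± 1.39 with gRNA 10, where the difference did not pass the test (log2 fold change -0.29 ± 0.11, adjusted p = 0.0614) but passed with only the compared libraries (-0.29, adjusted p = 0.000576) and with DESeq2 (adjusted p = 0.0454). In PC3 it was 64.8 ± 1.85, 21.9 ± 1.03 and 28.9 ± 1.59 CPM in the same order of groups. The 9 libraries labelled control were above the RIPK2 libraries of their line in every case. A pair of libraries stood apart: replicate 3 of 22Rv1 gRNA 1, with 16.7% of its counts from mitochondrial genes against 1.92% and 2.10% in the other replicates, and replicate 3 of DU145 gRNA 2, with the lowest scaling factor of its line (0.902). Member calls that change without one of them are given both ways. The 6 prostate luminal markers were all above 3 counts in 22Rv1, whereas KLK2 and KLK3 stayed at or under 3 counts, or were not listed, in each group of PC3 and DU145, as did HOXB13 in each group of DU145. Markers of blood, endothelial and stromal cells summed to between 0.0533 and 10.7 CPM per library (7 genes, of which CD3E and DCN were at or under 3 counts, or not listed, in each group); the highest sums, in PC3, were mostly PECAM1, an endothelial adhesion gene, at 2.03 ± 0.320 CPM in control, 9.77 ± 0.524 with gRNA 2 and 7.46 ± 1.09 with gRNA 10.

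Control cells of the 3 lines differed in nearly the whole set. Levels were divided by the annotated exon length of each gene, from 3443 bases for TDG to 16069 for TET2. The order between genes depends on these lengths. By this measure DNMT1 had the highest level in each line, at 69.5 ± 2.39 CPM per kb (SD, n = 3) in DU145, 42.7 ± 3.20 in 22Rv1 and 37.8 ± 1.10 in PC3. TET1 had the lowest, at 0.865 ± 0.141 CPM per kb in 22Rv1, 0.786 ± 0.0517 in PC3 and 0.313 ± 0.0201 in DU145. The order between these ends was not the same in the 3 lines. In 22Rv1 TDG came second with 38.8 ± 4.72 CPM per kb, overlapping DNMT1, and was followed by MBD2, UHRF1, TET3, DNMT3A, DNMT3B and TET2, where MBD2 and UHRF1 overlapped and so did TET3 and DNMT3A. In DU145 UHRF1 came second with 38.7 ± 1.83 CPM per kb, ahead of TDG, MBD2, DNMT3A, TET3, DNMT3B and TET2, with no overlap between neighbours in that order. PC3 had UHRF1 second at 19.9 ± 1.21 CPM per kb, then MBD2, TDG, DNMT3A, TET3, DNMT3B and TET2, and only TET2 and TET1 overlapped.

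**Figure D1:**
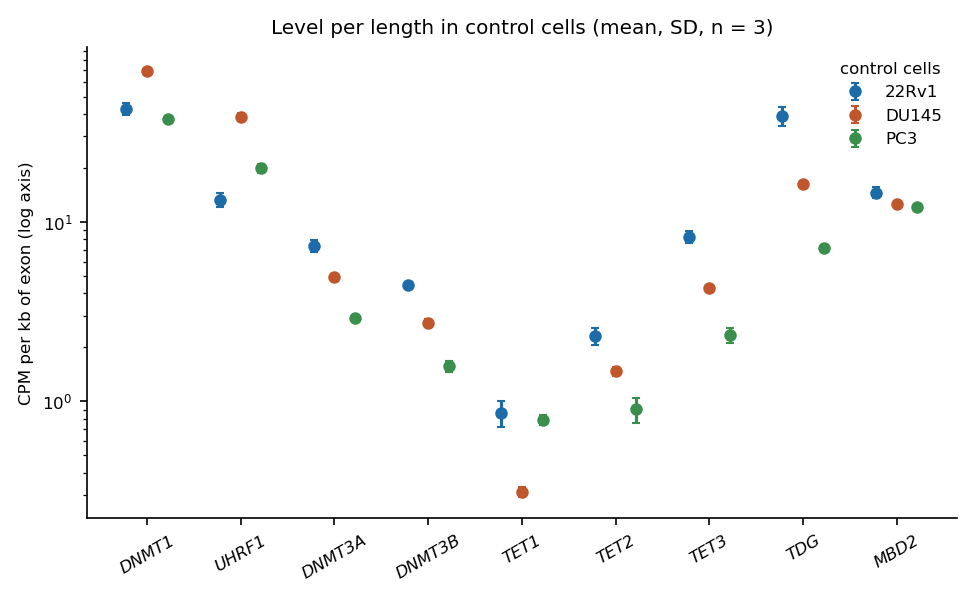
Level of each gene in the control cells of each line, as CPM per kb of annotated exon on a log axis (points: mean of 3 libraries, whiskers: SD, colours: cell line). DNMT1 is the highest point and TET1 the lowest point of each colour, and TDG spans the widest range between lines, from 38.8 ± 4.72 in 22Rv1 to 7.17 ± 0.316 in PC3.

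Between the control cells, 9 of 9 genes differed for DU145 against 22Rv1 (75.9% of all 16324 genes tested differed), 7 of 9 for PC3 against 22Rv1 (80.5% of all genes) and 8 of 9 for PC3 against DU145 (75.9% of all genes). Most genes of any kind differed between these lines. DNMT1 and UHRF1 were highest in DU145. UHRF1 had 75.7, 64.2 and 66.0 CPM in the 22Rv1 controls, 199, 189 and 208 in the DU145 controls and 95.5, 108 and 104 in the PC3 controls, 3 ranges that do not overlap (log2 fold change 1.54 ± 0.13, adjusted p = 2e-11 for DU145 against 22Rv1). DNMT1 had 275, 238 and 266 CPM in 22Rv1, 429, 405 and 432 in DU145 and 231, 235 and 222 in PC3, and the difference between PC3 and 22Rv1 did not pass (log2 fold change -0.18 ± 0.09, adjusted p = 0.0866; 95% interval -0.36 to 0.01). The genes that place new methyl groups and most of those that remove them had another order, with 22Rv1 highest and PC3 lowest. TDG showed the largest of these differences, with 127, 152 and 122 CPM in 22Rv1, 54.3, 58.1 and 55.4 in DU145 and 23.5, 25.5 and 25.1 in PC3 (log2 fold change -2.44 ± 0.12, adjusted p = 6.31e-16 for PC3 against 22Rv1). TET3 had the same order, with 102, 95.9 and 87.0 CPM in 22Rv1, 50.5, 48.4 and 49.3 in DU145 and 24.8, 29.9 and 26.0 in PC3. DNMT3A, DNMT3B and TET2 followed it, with log2 fold changes of -1.34 ± 0.09, -1.50 ± 0.13 and -1.35 ± 0.13 (SE) for PC3 against 22Rv1. TET1 was the exception: it had 8.03 ± 1.31 CPM in 22Rv1 and 7.30 ± 0.480 in PC3, which overlapped (log2 fold change -0.14 ± 0.13, adjusted p = 0.333), and 2.91 ± 0.187 in DU145, below both. MBD2 varied least, with means of 82.3 ± 5.83, 70.6 ± 0.903 and 68.6 ± 2.10 CPM, and the DU145 and PC3 libraries overlapped. Its difference between DU145 and 22Rv1 (log2 fold change -0.22 ± 0.10, adjusted p = 0.0396) was lost without 22Rv1 control replicate 2 or without any one of the 3 DU145 control replicates (adjusted p up to 0.17), and that between PC3 and 22Rv1 without 22Rv1 control replicate 2 (adjusted p = 0.0811).

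**Figure D2:**
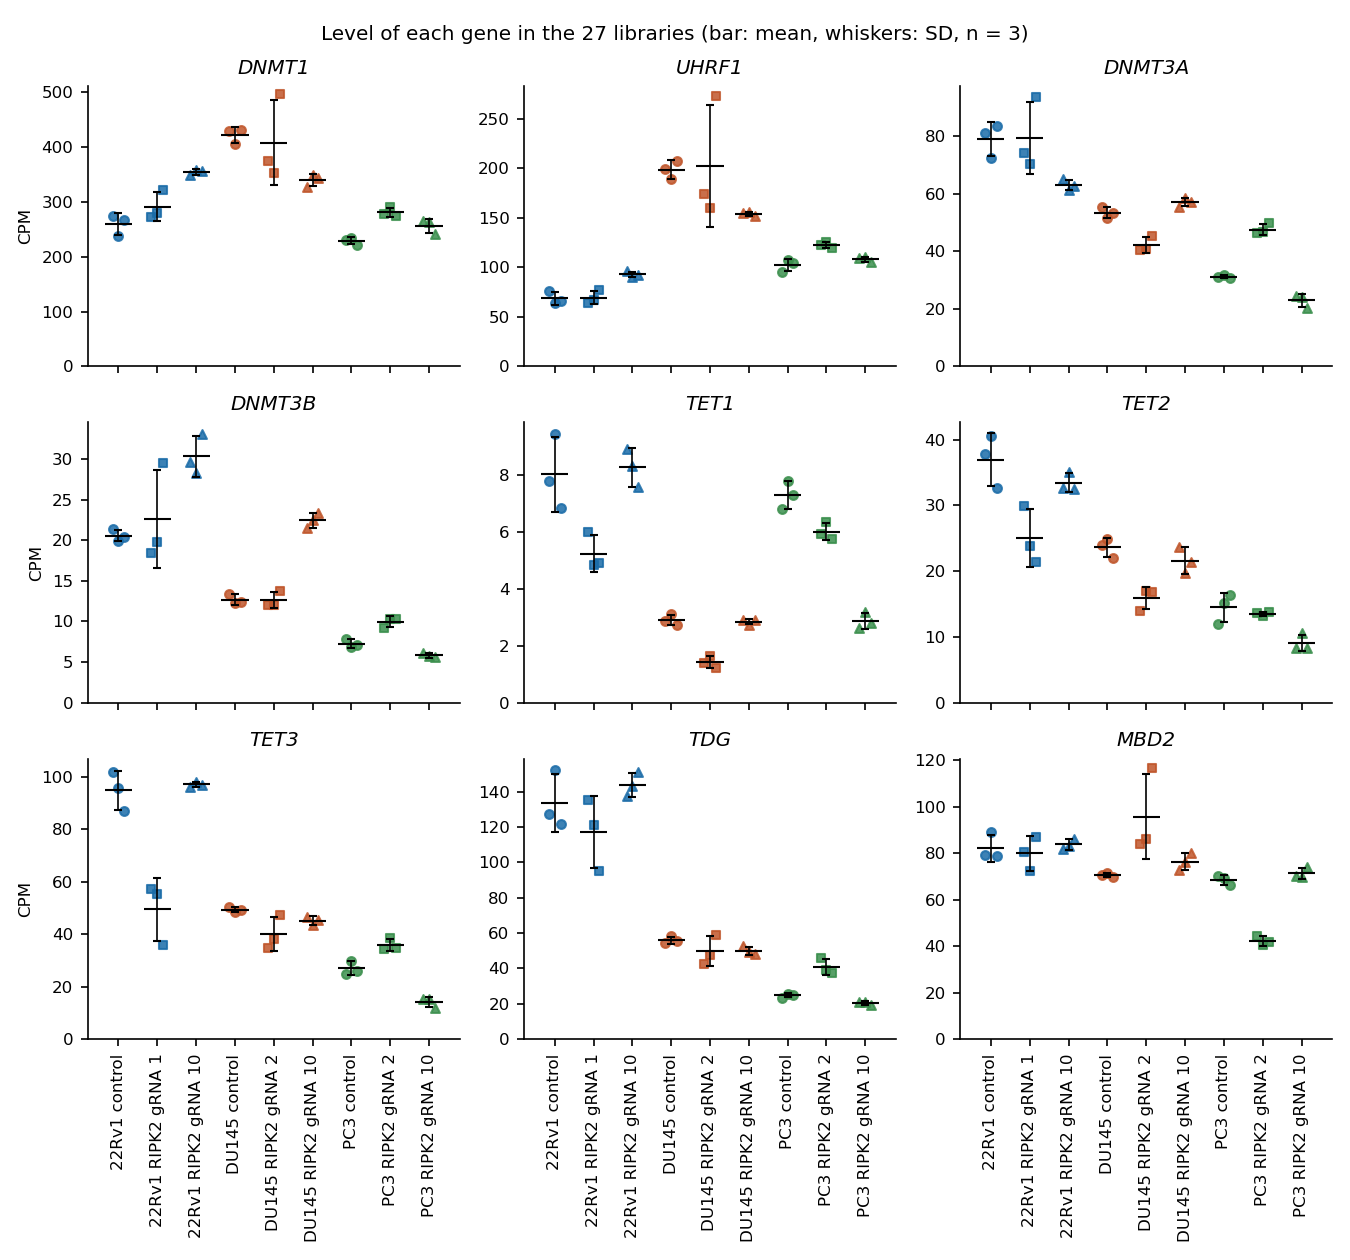
Level of each gene in CPM in all 27 libraries, by group (points: libraries, bars: mean, whiskers: SD, colours: cell line, circles: control guide, squares: RIPK2 gRNA 1 or 2, triangles: RIPK2 gRNA 10). TET1 is lower than control in the squares of 22Rv1 and DU145 and in the triangles and, by less, the squares of PC3, and 1 library of DU145 gRNA 2 sits far above its group for DNMT1 and UHRF1.

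With a RIPK2 guide, genes of the set changed in each of the 6 comparisons with control, but not the same ones and often not in the same direction with both guides of a line. In 22Rv1, gRNA 1 lowered 3 of 9 (TET1, TET2, TET3) and raised 0, where 48.5% of all 15198 genes changed, 25.6% upwards and 22.9% downwards. By an unadjusted p under 0.05, and by DESeq2, the number raised was also 0. With gRNA 10, 3 rose (DNMT1, UHRF1, DNMT3B) and 1 fell (DNMT3A), where 40.6% of all genes changed, 20.0% upwards and 20.6% downwards. In DU145, gRNA 2 raised 1 (MBD2) and lowered 3 (DNMT3A, TET1, TET2), where 34.0% of all 14908 genes changed, 17.1% upwards and 17.0% downwards. Its gRNA 10 raised 1 (DNMT3B) and lowered 0 in edgeR's test (2, DNMT1 and UHRF1, at an unadjusted p under 0.05, and 1, DNMT1, with DESeq2), where 40.0% of all genes changed, 20.2% upwards and 19.8% downwards. In PC3, whose replicates were closest to each other, gRNA 2 raised 6 and lowered 2 (TET1, MBD2), where 63.6% of all 14718 genes changed, 32.1% upwards and 31.5% downwards. PC3 gRNA 10 raised 2 (DNMT1, UHRF1) and lowered 6, where 73.5% of all genes changed, 37.9% upwards and 35.6% downwards. Nothing particular to the set is read from these numbers. Because these are whole populations, a lower level can come from fewer cells that express a gene or from less RNA per cell, and the 2 cannot be told apart.

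**Figure D3:**
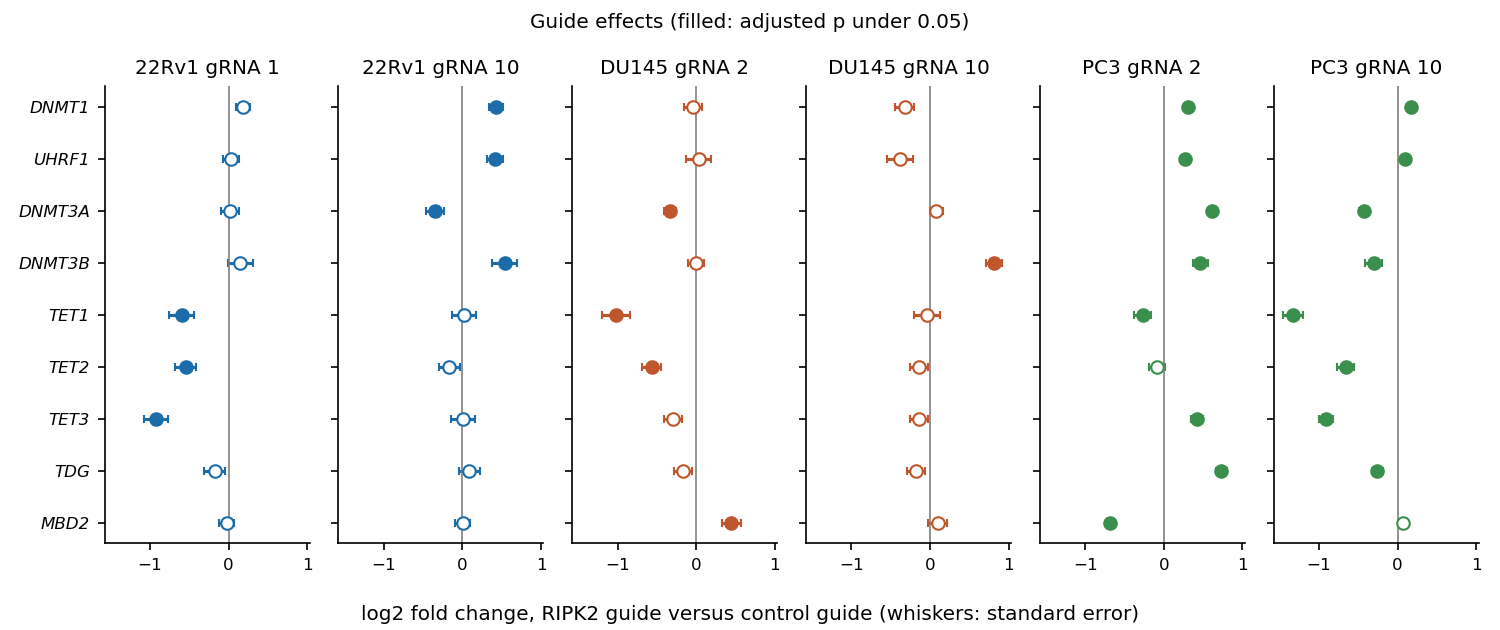
log2 fold change of each gene for each RIPK2 guide against the control guide of its line (points: estimate, whiskers: standard error, filled: adjusted p under 0.05, colours: cell line). The TET rows are filled on the left of 0 in 22Rv1 gRNA 1 and PC3 gRNA 10 for all 3 genes and in DU145 gRNA 2 for TET1 and TET2; the PC3 panels differ in sign for DNMT3A, DNMT3B, TET3, TDG and MBD2, the last of which is unfilled for gRNA 10.

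DNMT1 and UHRF1, the copying enzyme and its recruiter, rose together with gRNA 10 in 22Rv1 and with both guides in PC3, and neither passed the test in DU145. In 22Rv1, DNMT1 had 275, 238 and 266 CPM in the control libraries and 349, 359 and 356 with gRNA 10, with no overlap (log2 fold change 0.43 ± 0.09, adjusted p = 0.00353). UHRF1 there had 75.7, 64.2 and 66.0 CPM in control and 96.0, 90.5 and 92.1 with gRNA 10 (log2 fold change 0.42 ± 0.10, adjusted p = 0.00664). With gRNA 1 neither passed, DNMT1 having 272, 280.0 and 322 CPM and UHRF1 64.2, 66.9 and 77.1. In PC3, DNMT1 rose from 231, 235 and 222 CPM to 278, 290.3 and 275 with gRNA 2 (log2 fold change 0.31 ± 0.04, adjusted p = 3.76e-08) and to 264, 264 and 242 with gRNA 10 (log2 fold change 0.18 ± 0.04, adjusted p = 0.000152). UHRF1 rose from 95.5, 108 and 104 CPM to 122, 126 and 119.9 with gRNA 2 (log2 fold change 0.27 ± 0.04, adjusted p = 2.59e-06). All 6 of these DNMT1 and 3 UHRF1 knockout libraries were above the highest control. With gRNA 10 the UHRF1 libraries, 109, 110.3 and 106 CPM, overlapped the controls and the call is marginal (log2 fold change 0.10 ± 0.04, adjusted p = 0.0494); it was lost with RLE factors, without the filter, with DESeq2, with only the compared libraries, and without control replicate 1 or 3 or gRNA 10 replicate 1 or 2 (adjusted p up to 0.378).

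In DU145 both genes were lower in every gRNA 10 library than in every control, without passing. DNMT1 had 429, 405 and 432 CPM in control and 328, 349 and 345 with gRNA 10 (log2 fold change -0.32 ± 0.12, adjusted p = 0.0526), and UHRF1 had 199, 189 and 208 and 155, 156 and 152 (log2 fold change -0.38 ± 0.17, adjusted p = 0.091). The 9 DU145 libraries share 1 estimate of the spread, which includes the uneven gRNA 2 group. Fitted on the 6 compared libraries alone, 5 of 9 members passed in place of 1: DNMT1 (log2 fold change -0.32, adjusted p = 3.52e-06), UHRF1 (-0.38, adjusted p = 7.65e-07), DNMT3B, TET3 (adjusted p = 0.0323) and TDG (adjusted p = 0.00954). Over all genes the number called rose as well in that fit, from 5956 to 9749, so nothing particular to the set is read from it. With gRNA 2, DNMT1 had 374, 353 and 498 CPM and UHRF1 174, 160.3 and 273, so that replicate 3 was the highest DU145 library for both and the other replicates were below every control. Without that library both fell, DNMT1 by 0.21 on the log2 scale (adjusted p = 0.0135) and UHRF1 by 0.24 (adjusted p = 0.00807). The same library was high in the summed level of 19 S phase and proliferation genes, 5314 CPM against 4125 and 4223 in the other replicates of its group and 4137 to 4236 in the controls. With DU145 gRNA 10 the sum was 4248 to 4385 CPM, above every control, while DNMT1 and UHRF1 were lower. The genes under that sum did not move as one. RRM2 (log2 fold change 0.74) and E2F1 (0.26) passed as higher. MCM2 (-0.31), MCM3 (-0.41), TYMS (-0.70), CCNE2 (-0.95) and CDT1 (-0.80) passed as lower. In 22Rv1 the sum was 4942 to 5179.9 CPM in control libraries, 5059.8 to 5149 with gRNA 10 and 3858 to 4635 with gRNA 1. The gRNA 1 libraries were all below the controls. With gRNA 1 neither DNMT1 nor UHRF1 passed the test. It was 1659.7 to 1722 CPM in PC3 control libraries, 1874 to 1957 with gRNA 2 and 2095 to 2197 with gRNA 10. All 19 genes were above 3 counts in each group, and their part in the levels of DNMT1 and UHRF1 was not tested.

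Across libraries the levels of the pair moved together. After the mean of each line was subtracted, the Pearson correlation of log2 CPM over the 27 libraries was 0.93 (Spearman 0.95), and UHRF1 was the closest of 10497 genes to DNMT1 and DNMT1 the closest to UHRF1. Within 22Rv1, DU145 and PC3 (9 libraries each) the Pearson value was 0.93, 0.98 and 0.89, and it was 0.93 without the pair of libraries that stood apart. These are descriptions: libraries of a group share their population, so the points are not independent. Next in order came ACTB for DNMT1 (0.90) and SAFB2 for UHRF1 (0.90).

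**Figure D4:**
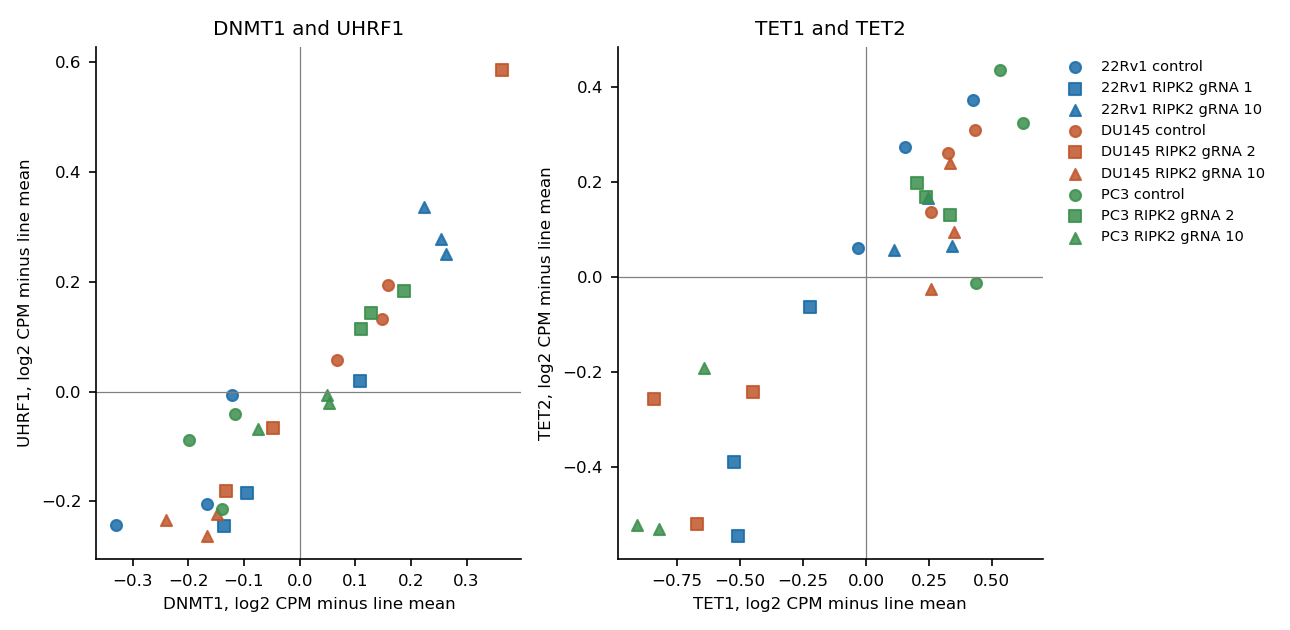
log2 CPM minus the mean of the line, in 27 libraries, for DNMT1 against UHRF1 (left) and TET1 against TET2 (right); colours give the line, circles the control guide, squares RIPK2 gRNA 1 or 2 and triangles RIPK2 gRNA 10. The DNMT1 and UHRF1 points lie along 1 line with replicate 3 of DU145 gRNA 2 at its top, and the 3 groups with the lowest TET1 (22Rv1 gRNA 1, DU145 gRNA 2, PC3 gRNA 10) are also those with the lowest TET2.

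The promoter of UHRF1 is shown because its E2F letters stand out in the set. Those of the TET genes are shown because all 3 fell together in some of the comparisons described next. RefSeq promoter windows on GRCh38.p14 were found for 9 of 9 genes (20 windows of 250 bases upstream of annotated starts), and the 4 printed here hold no annotated exon base; in GENCODE 29 the UHRF1 window lies within the span of the gene and the 3 TET windows lie before theirs. Capitals mark CG dinucleotides, the possible sites of methylation, and each is given on its gene's strand, 5′ to 3′.
UHRF1, chr19:4909894-4910143, forward strand: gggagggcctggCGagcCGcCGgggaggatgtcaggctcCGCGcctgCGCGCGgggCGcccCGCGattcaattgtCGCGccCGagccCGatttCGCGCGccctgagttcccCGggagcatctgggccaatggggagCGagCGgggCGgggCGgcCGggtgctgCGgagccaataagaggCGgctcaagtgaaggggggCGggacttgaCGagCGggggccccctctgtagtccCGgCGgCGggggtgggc
TET1, chr10:68560087-68560336, forward strand: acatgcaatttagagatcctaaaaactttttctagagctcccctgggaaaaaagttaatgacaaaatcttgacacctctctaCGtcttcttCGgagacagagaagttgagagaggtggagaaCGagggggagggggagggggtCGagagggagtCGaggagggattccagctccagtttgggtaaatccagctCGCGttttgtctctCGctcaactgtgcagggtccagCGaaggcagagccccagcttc
TET2, chr4:105145625-105145874, forward strand: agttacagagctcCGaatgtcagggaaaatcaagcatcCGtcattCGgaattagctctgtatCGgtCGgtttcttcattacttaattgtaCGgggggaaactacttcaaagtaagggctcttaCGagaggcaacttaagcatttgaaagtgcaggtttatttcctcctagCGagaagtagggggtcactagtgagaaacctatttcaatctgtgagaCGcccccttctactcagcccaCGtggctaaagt
TET3, chr2:73984660-73984909, forward strand: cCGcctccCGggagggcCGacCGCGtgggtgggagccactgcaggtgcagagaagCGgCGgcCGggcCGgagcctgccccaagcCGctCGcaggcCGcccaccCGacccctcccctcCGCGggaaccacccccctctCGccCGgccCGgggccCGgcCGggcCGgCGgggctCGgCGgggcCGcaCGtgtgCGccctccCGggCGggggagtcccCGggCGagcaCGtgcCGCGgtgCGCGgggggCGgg
Windows of these 4 genes that are not printed held 28 and 41 CG dinucleotides (UHRF1), 11 and 4 (TET1), 34 (TET2, all of it exon) and 27 (TET3). The printed UHRF1 window held 32, that of TET3 37, that of TET1 9 and that of TET2 10. The median of 35116 windows of this length was 11. The letters TTTCGCGC or TTTGGCGC, searched on both strands as an E2F motif (E2F factors drive genes of the S phase), were in 1 of the 20 windows, this one of UHRF1, and in 0.968% of all windows. A CCAAT box (CCAAT, both strands) was in 7 of the 20 windows and 32.0% of all, and a GC box (GGGCGG, both strands) in 11 and 42.6%. None of these motifs contains another, and a match describes letters only. Methylation of these windows was not measured here.

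All 3 TET genes fell with gRNA 1 in 22Rv1 and with gRNA 10 in PC3, and TET1 and TET2 fell with gRNA 2 in DU145; with the other guide of each line TET1 fell in PC3 and TET3 rose there. TET3, the most abundant of the 3 per length in each line, had 102, 95.9 and 87.0 CPM in 22Rv1 control libraries and 57.2, 55.4 and 35.7 with gRNA 1, or 52.7% of the control level (log2 fold change -0.92 ± 0.16, adjusted p = 0.000754). TET1 went from 7.80, 9.45 and 6.85 to 5.99, 4.85 and 4.90 CPM (log2 fold change -0.60 ± 0.16, adjusted p = 0.0104). TET2 went from 37.8, 40.5 and 32.6 to 29.9, 23.9 and 21.4 CPM (log2 fold change -0.54 ± 0.13, adjusted p = 0.00669). None of the 3 overlapped its controls, and without replicate 3, the library rich in mitochondrial counts, the log2 fold changes were -0.74 for TET3, -0.56 for TET1 and -0.45 for TET2, with adjusted p of 3.39e-06, 0.00867 and 0.00428. With gRNA 10 in the same line no TET gene passed, at log2 fold changes of 0.02 ± 0.16, -0.17 ± 0.13 and 0.01 ± 0.15 (SE) for TET1, TET2 and TET3.

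In DU145, TET1 rested on the fewest counts of the set, with 62, 67 and 58 counts in the control libraries and 29, 35 and 23 with gRNA 2, or 2.88, 3.11 and 2.74 against 1.39, 1.64 and 1.23 CPM (log2 fold change -1.02 ± 0.18, adjusted p = 0.0019). TET2 fell from 24.0, 24.9 and 22.1 to 14.0, 17.0 and 16.8 CPM (log2 fold change -0.57 ± 0.12, adjusted p = 0.00408). TET3 had 50.5, 48.4 and 49.3 CPM in control and 34.6, 38.1 and 47.5 with gRNA 2, lower in each library without passing (log2 fold change -0.30 ± 0.11, adjusted p = 0.0627), and it passed without replicate 3 (log2 fold change -0.43, adjusted p = 0.000442). With DU145 gRNA 10 no TET gene passed; TET1, at 2.89, 2.74 and 2.92 CPM, overlapped the controls (log2 fold change -0.04 ± 0.17, adjusted p = 0.866).

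PC3 gRNA 10 gave the largest TET1 change of the 6 comparisons. TET1 fell from 6.82, 7.78 and 7.30 to 2.62, 3.18 and 2.79 CPM, or 39.7% of control (log2 fold change -1.33 ± 0.13, adjusted p = 8.35e-11). TET3 fell from 24.8, 29.9 and 26.0 to 15.1, 15.4 and 11.9 CPM (log2 fold change -0.91 ± 0.09, adjusted p = 4.04e-09). TET2 fell from 12.0, 15.1 and 16.3 to 8.38, 10.6 and 8.33 CPM (log2 fold change -0.66 ± 0.11, adjusted p = 5.01e-06). In each case the knockout libraries were all below the controls. With gRNA 2 the 3 genes went apart: TET3 rose to 34.3, 38.6 and 34.7 CPM (log2 fold change 0.43 ± 0.08, adjusted p = 4.81e-05), TET1 fell to 5.92, 6.34 and 5.77 (log2 fold change -0.27 ± 0.11, adjusted p = 0.0339), and TET2, at 13.6, 13.2 and 13.9 CPM, did not pass (log2 fold change -0.08 ± 0.10, adjusted p = 0.473). The TET1 call with gRNA 2 was lost with DESeq2 and without control replicate 2 or 3 or gRNA 2 replicate 1 or 3 (adjusted p up to 0.128).

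Over the 27 libraries, with line means subtracted, TET1 and TET2 had a Pearson correlation of 0.91 (Spearman 0.79), TET2 and TET3 0.82 (0.72) and TET1 and TET3 0.76 (0.50). The 9 libraries of 22Rv1 gRNA 1, DU145 gRNA 2 and PC3 gRNA 10 had the lowest values of both TET1 and TET2. Replicate 1 of 22Rv1 gRNA 1 lay between them and the rest. The pooled values describe mainly the difference between those groups and the others. Within DU145 the value for TET1 and TET3 was 0.60, the lowest of the 3 pairs in any line. The genes closest to TET1 were PSD3 (0.91) and TET2. TET2 was closest to XPO4 (0.91) and ATAD2B (0.89), in a search that left out TET1 because its mean was under 10 CPM. TET3 was closest to NCAPD3, a condensin subunit (0.96), and to TUBGCP4 (0.92). Within 2 Mb, the median log2 fold change of the tested neighbours was -0.05 for TET1, -0.06 for TET2 and 0.14 for TET3 in 22Rv1 gRNA 1, and -0.12, 0.21 and -0.08 in PC3 gRNA 10. In DU145 gRNA 2 the neighbours of TET1 had a median of -0.28, with 10 of 31 lower and 1 higher. Of all genes in that comparison, 17.0% were lower and 17.1% higher.

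DNMT3A and DNMT3B, which place new methyl groups, did not move as a pair outside PC3. In 22Rv1 with gRNA 10 they went in opposite directions. DNMT3B had 21.3, 19.9 and 20.4 CPM in control and 29.6, 28.3 and 33.1 with gRNA 10 (log2 fold change 0.54 ± 0.16, adjusted p = 0.0199), whereas DNMT3A had 81.1, 72.3 and 83.3 and 64.9, 61.4 and 62.6 (log2 fold change -0.35 ± 0.12, adjusted p = 0.034). Neither range overlapped its controls, but both calls are sensitive to single libraries: DNMT3A was lost without control replicate 1 or 3 or any gRNA 10 replicate (adjusted p up to 0.109), and DNMT3B without control replicate 2 or 3 or gRNA 10 replicate 3 (up to 0.0777). With gRNA 1, DNMT3A had 74.1, 70.1 and 93.7 CPM and DNMT3B 18.4, 19.8 and 29.6, where replicate 3 was the highest for both, and neither passed.

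In DU145 each guide changed 1 of them. With gRNA 2 DNMT3A fell from 55.2, 51.5 and 53.2 to 40.3, 40.8 and 45.1 CPM (log2 fold change -0.34 ± 0.08, adjusted p = 0.00888), a call lost without control replicate 1 or with only the compared libraries (adjusted p up to 0.0524), and DNMT3B had 12.0, 12.0 and 13.8 CPM against 13.4, 12.2 and 12.4 (log2 fold change -0.01 ± 0.10, adjusted p = 0.973). With gRNA 10 DNMT3B rose to 21.5, 22.5 and 23.3 CPM, or 175% of control (log2 fold change 0.81 ± 0.10, adjusted p = 0.000155), while DNMT3A, at 55.5, 58.4 and 56.9 CPM, did not pass (log2 fold change 0.08 ± 0.08, adjusted p = 0.434). The rise of DNMT3B was the only member called in that comparison and held in each alternative (adjusted p from 3.63e-11 to 0.00193).

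In PC3 both genes rose with gRNA 2 and both fell with gRNA 10. DNMT3A had 31.1, 31.6 and 30.8 CPM in control, 46.1, 46.7 and 49.6 with gRNA 2 (log2 fold change 0.62 ± 0.06, adjusted p = 1.04e-10) and 24.4, 24.0 and 20.4 with gRNA 10 (log2 fold change -0.43 ± 0.06, adjusted p = 6.26e-07). DNMT3B had 7.84, 6.82 and 7.14, 9.17, 10.3 and 10.3 and 6.17, 5.69 and 5.64 CPM in the same order (log2 fold change 0.47 ± 0.10, adjusted p = 0.000132 and log2 fold change -0.30 ± 0.11, adjusted p = 0.0142). The 3 groups do not overlap for either gene. The fall of DNMT3B was lost without control replicate 1 (adjusted p = 0.073). DNMT3A was closest in pattern to RNF214 (0.91) and NFATC4 (0.88), and DNMT3B to PSPC1 (0.91) and FOXK1 (0.88), over the 27 libraries.

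TDG, the glycosylase, rose with gRNA 2 and fell with gRNA 10 in PC3, and did not pass with either guide of 22Rv1 or DU145. Its PC3 control libraries had 23.5, 25.5 and 25.1 CPM, those with gRNA 2 had 45.9, 38.8 and 37.3 (log2 fold change 0.73 ± 0.07, adjusted p = 1.82e-10) and those with gRNA 10 had 20.9, 21.2 and 19.3 (log2 fold change -0.26 ± 0.08, adjusted p = 0.00336). The 3 groups do not overlap. In 22Rv1 it had 127, 152 and 122 CPM in control, 135, 121 and 95.2 with gRNA 1, with replicate 3 lowest, and 138, 143 and 151 with gRNA 10, and neither guide passed. In DU145 its values were 54.3, 58.1 and 55.4 in control, 42.6, 47.9 and 59.1 with gRNA 2 and 52.5, 49.3 and 48.0 with gRNA 10; without replicate 3 of gRNA 2 it fell by 0.30 on the log2 scale (adjusted p = 0.00738). TDG was closest in pattern to POGLUT3 (0.91) and PURB (0.90). Leaving out replicate 3 of DU145 gRNA 2 thus raised the number of members called there from 4 to 8, the exception being DNMT3B, and leaving out DU145 control replicate 1 lowered it to 2.

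MBD2, the reader, changed with gRNA 2 in both lines that carry it, in opposite directions. In DU145 it had 70.5, 71.5 and 69.8 CPM in control and 84.0, 86.3 and 117 with gRNA 2 (log2 fold change 0.44 ± 0.12, adjusted p = 0.0166). Without replicate 3, the highest, the rise was 0.28 (adjusted p = 0.00376), and the call was lost with only the compared libraries or without any one of the 3 control replicates (adjusted p up to 0.0609). In PC3 it had 70.2, 69.3 and 66.2 CPM in control and 44.5, 40.5 and 41.6 with gRNA 2, or 62.1% of control (log2 fold change -0.69 ± 0.05, adjusted p = 2.79e-13). With gRNA 10 it did not pass in any line, the log2 fold changes being 0.01 ± 0.10 in 22Rv1, 0.10 ± 0.12 in DU145 and 0.07 ± 0.05 in PC3. Its closest genes in pattern were MAP7 (0.93) and TYW5 (0.91).

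In several comparisons most of the genes near MBD2 or DNMT3B that passed the test moved the same way as the member. Of all genes, 31.5% fell and 32.1% rose with gRNA 2 in PC3. With gRNA 10, 20.2% rose and 19.8% fell in DU145, and 35.6% fell and 37.9% rose in PC3. Within 2 Mb of MBD2, 4 of 6 tested genes fell with gRNA 2 in PC3, with a median log2 fold change of -0.63; within 10 Mb 36 of 65 fell and 11 rose (median -0.43). Around DNMT3B, 19 of 36 genes within 2 Mb rose and 1 fell with gRNA 10 in DU145 (median 0.35), and 27 of 35 fell and 3 rose with gRNA 10 in PC3 (median -0.48). Within 10 Mb of DNMT3B the medians were 0.31 and -0.45. Both windows were chosen after values were seen, the number of gene copies was not measured, and the part of the neighbourhood in these results was not tested. In contrast, DNMT3B rose with gRNA 2 in PC3 while the median of its neighbours within 2 Mb was -0.04, and MBD2 rose with gRNA 2 in DU145 where its 7 tested neighbours had a median of 0.0068.

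**Figure D5:**
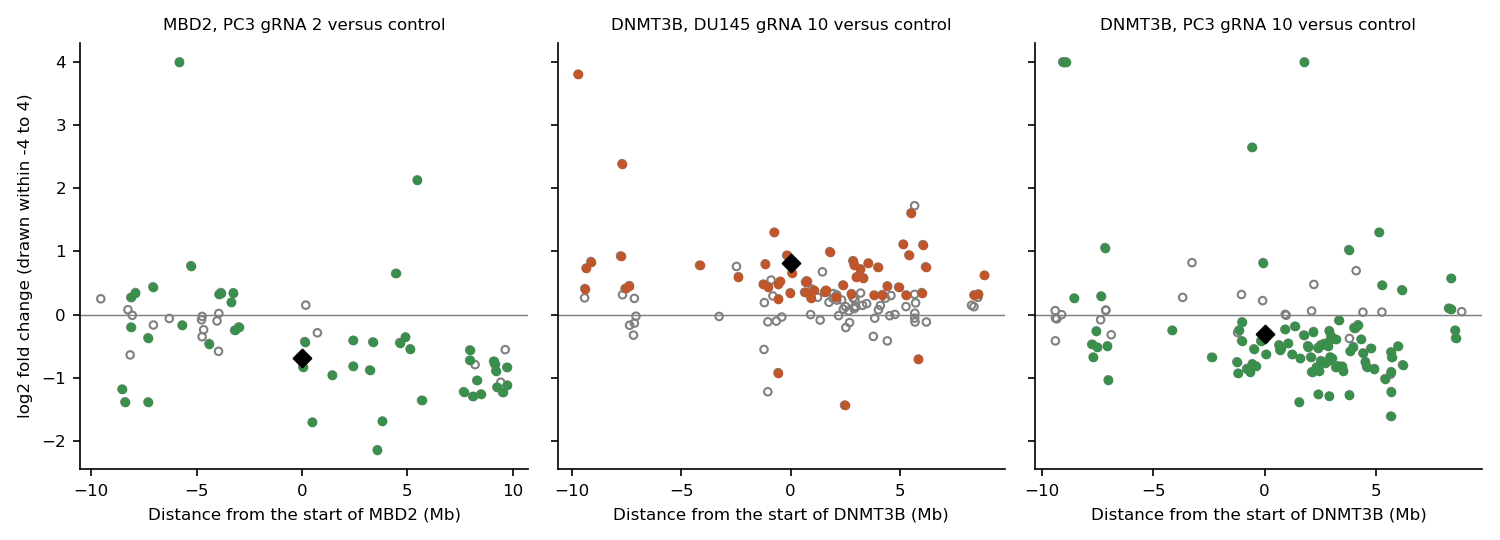
log2 fold change of genes within 10 Mb of MBD2 (PC3 gRNA 2) and of DNMT3B (DU145 gRNA 10 and PC3 gRNA 10) against distance from the start of the member in Mb (diamond: the member, filled points: adjusted p under 0.05, open points: not passed, 5 points beyond 4 are drawn at 4). Most filled points lie below 0 in the MBD2 panel and the PC3 DNMT3B panel; in the DU145 panel most lie above 0 (3 lower against 52 higher).

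Compared directly, the 2 RIPK2 guides of a line differed. In PC3 all 9 genes differed between gRNA 10 and gRNA 2 (73.4% of all genes did), with TET3 the furthest apart at -1.34 ± 0.09 on the log2 scale (adjusted p = 2.1e-12), then TET1 (-1.07 ± 0.13), DNMT3A (-1.05 ± 0.06) and TDG (-0.99 ± 0.07), all lower with gRNA 10, and with MBD2 higher (0.76 ± 0.05). In 22Rv1 5 of 9 differed (35.6% of all genes): TET1, TET2, TET3 and UHRF1 were higher with gRNA 10 than with gRNA 1, by 0.62 ± 0.16, 0.38 ± 0.13, 0.94 ± 0.16 and 0.38 ± 0.10, and DNMT3A was lower (-0.37 ± 0.12). Without gRNA 1 replicate 3 the count was 6. DNMT1 (0.34, adjusted p = 0.0018) and DNMT3B (0.64, adjusted p = 0.000108) passed and TET2 did not (0.29, adjusted p = 0.051). The count fell to 1 without gRNA 10 replicate 1 and to 3 without gRNA 10 replicate 2, without gRNA 10 replicate 3 or with only the 6 compared libraries. In DU145 5 of 9 differed (38.8% of all genes): DNMT3A, DNMT3B, TET1 and TET2 were higher with gRNA 10 than with gRNA 2, by 0.42 ± 0.08, 0.82 ± 0.10, 0.98 ± 0.18 and 0.43 ± 0.12, and MBD2 was lower (-0.34 ± 0.12). Without gRNA 2 replicate 3 it was 6. TET3 then also passed (0.29, adjusted p = 0.00642). It was 3 without gRNA 10 replicate 1 or 3 or with only the compared libraries. Both guide comparisons of a line share their control libraries, so their values are set side by side and no agreement between them is counted.

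Because gRNA 10 was used in all 3 lines, its effects could be compared between them, by a test of the difference itself in 1 fit of all 27 libraries. Between PC3 and DU145 7 of 9 genes responded differently (48.0% of all genes did). TET1 fell more in PC3 (difference -1.32 ± 0.21 on the log2 scale, adjusted p = 9.32e-06), and so did TET3 (-0.80 ± 0.19) and TET2 (-0.54 ± 0.18). DNMT3B, up in DU145 and down in PC3, differed by -1.14 ± 0.19 (adjusted p = 1.74e-05). The other 3 were DNMT3A (-0.54 ± 0.13), DNMT1 (0.47 ± 0.13) and UHRF1 (0.45 ± 0.17). UHRF1 was lost without DU145 control replicate 1 or 3, any DU145 gRNA 10 replicate, PC3 control replicate 1 or PC3 gRNA 10 replicate 2 (adjusted p up to 0.0735), and TET2 without DU145 gRNA 10 replicate 1, PC3 control replicate 3 or PC3 gRNA 10 replicate 1 or 3 (up to 0.0689). Between PC3 and 22Rv1 4 of 9 differed (47.6% of all genes): TET1 (-1.39 ± 0.19), TET3 (-0.96 ± 0.19), DNMT3B (-0.88 ± 0.19) and TET2 (-0.53 ± 0.18), all lower in PC3. TET2 was lost there without 22Rv1 control replicate 3, PC3 control replicate 2 or 3 or PC3 gRNA 10 replicate 1 or 3 (adjusted p up to 0.0825). The number was 7 with only the libraries compared. Between DU145 and 22Rv1 3 of 9 differed (44.7% of all genes): UHRF1 (-0.81 ± 0.17, adjusted p = 0.000465) and DNMT1 (-0.76 ± 0.13, adjusted p = 4.3e-05) fell in DU145 relative to 22Rv1, and DNMT3A was higher (0.42 ± 0.13). For gRNA 2, in a comparison added after the values were seen, 7 of 9 genes responded differently in PC3 than in DU145 (35.9% of all genes), with MBD2 lower (difference -1.14 ± 0.14) and DNMT3A and TDG higher by 0.95 ± 0.13 and 0.89 ± 0.17, and TET1, TET3, TET2 and DNMT1 higher by 0.75 ± 0.21, 0.72 ± 0.19, 0.48 ± 0.18 and 0.34 ± 0.13. Without DU145 gRNA 2 replicate 3 all 9 passed, DNMT3B (0.53, adjusted p = 0.0267) and UHRF1 (0.51, adjusted p = 0.000339) among them. The calls of TET2 and DNMT1 were each lost in 7 of the 12 fits that leave out 1 library (adjusted p up to 0.133 and 0.137). Neither the effect of gRNA 10 on TDG (-0.11 ± 0.17 for PC3 against DU145, adjusted p = 0.641, and -0.38 ± 0.17 against 22Rv1, adjusted p = 0.0668) nor that on MBD2 was shown to differ between lines.

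Other genes of the pathway were looked at by lists chosen with earlier results of these data known, and each count is set beside the share of all genes given above for its comparison. Of 13 further writers, cofactors and regulators, the counts were 2 higher and 3 lower (median -0.11) in 22Rv1 gRNA 1 and 3 higher and 3 lower (median -0.16) in gRNA 10, of 11 tested. In DU145 they were 5 higher and 1 lower (median 0.16) with gRNA 2 and 5 higher and 3 lower (median 0.06) with gRNA 10, of 11 tested, and in PC3 3 higher and 3 lower (median -0.09) and 4 higher and 2 lower (median 0.19) of 9 tested. The CXXC-domain genes CXXC4 and CXXC5 and the stress gene GADD45G were the genes of this list with the largest rise shared by both guides of a line. CXXC5 rose in PC3 by 1.33 ± 0.08 with gRNA 2 and 1.95 ± 0.08 with gRNA 10, and GADD45G and CXXC4 rose in DU145 from next to nothing. GADD45G had 3 to 4 counts in the DU145 control libraries, 10 to 29 with gRNA 2 and 25 to 41 with gRNA 10. CXXC4 had 0 counts in the 3 control libraries, 1 to 4 with gRNA 2, where the mean was under the level of 3 counts, and 21 to 29 with gRNA 10, so no fold is given; the median of the list is the same wherever CXXC4 lies above it.

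Among 9 other methyl-CpG readers and related MBD-domain genes, the counts were 3 higher and 2 lower (median -0.10) in 22Rv1 gRNA 1 and 1 higher and 3 lower (median 0.11) in gRNA 10. DU145 had 1 higher and 1 lower (median -0.05) with gRNA 2 and 1 higher and 4 lower (median -0.26) with gRNA 10, and PC3 5 lower (median -0.15) and 3 higher and 4 lower (median -0.03). MBD5 and MBD6 carry the MBD domain but are not known to bind methylated DNA. MBD6 rose in 22Rv1 by 0.92 ± 0.19 and 0.98 ± 0.19 with gRNA 1 and gRNA 10, and ZBTB33, which encodes the reader Kaiso, fell there by 0.78 ± 0.12 and 0.67 ± 0.12 on the log2 scale. MBD3, the NuRD subunit related to MBD2 that does not itself prefer methylated DNA, fell in DU145 by 0.70 ± 0.17 with gRNA 2 and 0.65 ± 0.17 with gRNA 10. Of 11 NuRD partners of MBD2, the counts were 1 higher and 4 lower (median -0.16) and 2 higher and 2 lower (median -0.02) in 22Rv1, 2 higher and 2 lower (median 0.03) and 2 higher and 2 lower (median -0.12) in DU145, and 3 higher and 5 lower (median 0.03) and 5 higher and 3 lower (median 0.05) in PC3, gRNA 10 given second. The histone chaperone RBBP4 rose in PC3 by 0.46 ± 0.04 and 0.77 ± 0.04, the deacetylase HDAC2 rose in DU145 by 0.54 ± 0.10 and 0.47 ± 0.10, and RBBP7 fell in 22Rv1 by 0.39 ± 0.09 and 0.33 ± 0.09.

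The list of base excision repair partners held other glycosylases as well as genes that act after TDG. Of 9 tested in each line, 22Rv1 had 4 higher (median 0.09) and 1 higher and 2 lower (median 0.01). DU145 had 2 higher and 2 lower (median -0.07) and 2 higher and 3 lower (median -0.02). PC3 had 3 higher and 3 lower (median -0.01) and 4 higher and 2 lower (median 0.15). The glycosylase NEIL1 fell in DU145 by 0.99 ± 0.19 and 1.05 ± 0.19, and APEX1, the main AP endonuclease, fell there by 0.62 ± 0.18 and 1.04 ± 0.19. SMUG1, another uracil glycosylase, rose in 22Rv1 by 0.57 ± 0.09 and 0.62 ± 0.09. For the 10 genes of methyl donor and cofactor supply the counts were 1 higher and 1 lower (median -0.03) and 1 higher and 3 lower (median -0.16) in 22Rv1, 1 higher and 4 lower (median 0.10) and 1 higher and 5 lower (median -0.26) in DU145 and 4 higher and 3 lower (median 0.06) and 6 higher and 4 lower (median 0.26) in PC3. IDH1, which makes the 2-oxoglutarate that TET enzymes use, fell in PC3 by 0.94 ± 0.04 and 0.39 ± 0.04, while MTR, methionine synthase, rose by 1.06 ± 0.06 and 0.38 ± 0.07.

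The 19 S phase and proliferation genes, whose summed levels stand beside DNMT1 above, had counts of 2 higher and 6 lower (median -0.12) and 3 higher and 4 lower (median 0.02) in 22Rv1, 4 higher and 1 lower (median 0.18) and 2 higher and 5 lower (median 0.01) in DU145 and 9 higher and 1 lower (median 0.12) and 14 higher and 2 lower (median 0.19) in PC3. TOP2A and CCNB1 rose with both PC3 guides, TOP2A by 0.88 ± 0.05 and 0.78 ± 0.05 and CCNB1 by 0.70 ± 0.05 and 0.68 ± 0.05. CCNE2, a cyclin of the entry into S phase, fell with both 22Rv1 guides, by 0.73 ± 0.16 and 0.85 ± 0.16. It also fell with both DU145 guides, by 0.43 ± 0.14 and 0.95 ± 0.14, and rose with both PC3 guides, by 0.71 ± 0.07 and 0.99 ± 0.07. MCM7, a subunit of the replicative helicase, rose with both 22Rv1 guides, by 0.38 ± 0.09 and 0.56 ± 0.09.

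Germline genes that are known to be silenced by promoter methylation were mostly too low to test. Of 14, 3 were tested in 22Rv1, 3 in DU145 and 2 in PC3. The counts of those were 1 higher and 2 lower (median -1.30) and 2 lower (median -0.55) in 22Rv1, 2 lower (median -1.12) and 1 higher and 2 lower (median -0.68) in DU145 and 1 higher and 1 lower (median 0.48) and 1 higher and 1 lower (median -0.65) in PC3. STK31 fell in DU145 by 2.80 ± 0.32 and 2.84 ± 0.32. In PC3, MOV10L1 rose by 2.15 ± 0.23 and 1.25 ± 0.26 and TDRD9 fell by 1.19 ± 0.28 and 2.54 ± 0.35. DNA methylation itself was not measured in these libraries.

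Markers of the cells' own identity moved as well. Of 6 prostate luminal markers, 4 were lower in 22Rv1 gRNA 1 and 2 were higher and 3 were lower in gRNA 10, with summed levels of 1512 to 1530.1 CPM in control, 858 to 907 with gRNA 1 and 1301 to 1312 with gRNA 10. In PC3, where 4 were tested, 2 were higher and 2 were lower with gRNA 2 and 3 were higher and 1 was lower with gRNA 10. HOXB13, a homeobox factor of the prostate, fell in 22Rv1 by 1.28 ± 0.09 and 0.59 ± 0.09, while the protease gene TMPRSS2 rose in PC3 by 1.51 ± 0.07 and 3.33 ± 0.06. Of 4 epithelial markers, all tested in each line, the counts were 3 higher and 1 lower (median 0.61) and 2 higher and 1 lower (median 0.51) in 22Rv1, 3 higher (median 1.24) and 2 higher (median 0.19) in DU145 and 2 higher (median 0.15) and 3 higher and 1 lower (median 0.74) in PC3, gRNA 10 given second. They summed to 769.9 to 814 CPM in DU145 control libraries, 1428 to 2714 with gRNA 2 and 1393 to 1514 with gRNA 10, and to 786 to 815, 979.6 to 1034 and 1744 to 1859 CPM in the same order in PC3. The keratins KRT8 and KRT18 rose in DU145 by 1.28 ± 0.16 and 1.21 ± 0.23 with gRNA 2 and by 1.07 ± 0.16 and 0.81 ± 0.23 with gRNA 10. EPCAM, an adhesion gene of epithelia, rose in 22Rv1 by 0.59 ± 0.12 and 0.89 ± 0.12 and fell in PC3 gRNA 10 by 0.34 ± 0.06. In 22Rv1, KRT8 fell with gRNA 10 by 0.49 ± 0.10 and CDH1, the epithelial cadherin, fell with gRNA 1 by 0.31 ± 0.10. The part of these changes in the levels of the methylation genes was not tested.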

How the data were processed

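Per the labels' protocols, total RNA of 27 samples of 22Rv1, DU145 and PC3 gave strand-specific mRNA libraries, read as pairs of 150 bases. Gene counts were deposited as 1 table per line; FastQC, STAR and edgeR and the build hg38 are named in the submitters' processing notes, without versions, and the counter and annotation are not given in the sources used here. The counts were tested with edgeR 4.0.16 in R 4.3.3 (TMM factors, filterByExpr set to at least 10 counts and 15 in total, robust quasi-likelihood F test, Benjamini-Hochberg adjustment), in 1 fit of 9 libraries per line (15198, 14908 and 14718 genes) and, for contrasts between lines, 1 fit of 27 (16324 genes). Standard errors follow from the fold change and F. The procedure was tested on simulated counts with few changed genes, the same spread for every gene and no library set apart. These data differ from that setting. DESeq2 1.42.0 and the alternatives of the closing section were run beside it. Groups and replicate numbers follow the sample titles, and no 2 replicates agreed within sampling noise.

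The 9 members and the gene lists were chosen with earlier results of these data known. Named besides the members were RIPK2, up to 3 genes per list with the largest change passed in 1 direction with both guides of a line, and the 2 genes most like each member in log2 CPM (prior count 2) among those of at least 10 CPM. Some genes that this rule names are not reported here. The gRNA 2 comparison between lines and the windows of 2 and 10 Mb were chosen after the data were seen.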

Additional observations from a re-analysis of the deposited data

Results flagged for a closer look

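The comparisons below list the genes of the set for which the effect of a RIPK2 guide differed between 2 lines. Each was edgeR's quasi-likelihood test of the difference in 1 fit of 27 libraries, adjusted over all genes. Of all genes, 44.7%, 47.6%, 48.0% and 35.9% passed in the comparisons, in the order given. The share of all genes passing in at least 1 was not counted. MBD2 and TDG passed only for gRNA 2, a comparison added after the values were seen. Some calls of UHRF1, TET2 and DNMT1 were lost when 1 library was left out, as given above. Each difference is given as a log2 value, with no explanation. For gRNA 10 in DU145 against 22Rv1, the differences were -0.76 for DNMT1, -0.81 for UHRF1 and 0.42 for DNMT3A. For gRNA 10 in PC3 against 22Rv1 they were -1.39 for TET1, -0.96 for TET3, -0.88 for DNMT3B and -0.53 for TET2. For gRNA 10 in PC3 against DU145 they were -1.32 for TET1, -1.14 for DNMT3B, -0.80 for TET3, -0.54 for TET2, -0.54 for DNMT3A, 0.47 for DNMT1 and 0.45 for UHRF1. For gRNA 2 in PC3 against DU145 they were -1.14 for MBD2, 0.95 for DNMT3A, 0.89 for TDG, 0.75 for TET1, 0.72 for TET3, 0.48 for TET2 and 0.34 for DNMT1. These comparisons share libraries.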

How the results depend on the processing

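RLE factors, no filter on low counts, DESeq2, a replicate block, a fit of only the compared libraries and leaving out each library in turn were tried. Every comparison was covered, for each member and for RIPK2. Of 2000 values, 1845 kept their direction and side of the threshold, 84 lost and 33 gained significance with the same sign, and 38 changed sign, none of them a value that had passed in the fit reported. After the change 1 of these passed, UHRF1 in DU145 gRNA 2 without replicate 3 (-0.24, adjusted p = 0.00807). Without the filter the sign changed for DNMT3A (-0.034) and UHRF1 (-0.024) in 22Rv1 gRNA 1, MBD2 in 22Rv1 gRNA 10 (-0.0039) and DNMT3B in DU145 gRNA 2 (0.017), the last also with only the compared libraries (0.011). With only the compared libraries the number of members called was 2 for DU145 gRNA 2, 5 for DU145 gRNA 10, 3 for each of the direct guide comparisons in 22Rv1 and DU145 and 7 for the gRNA 10 effect in PC3 against 22Rv1; with DESeq2 it was 2 for DU145 gRNA 10. Over all genes, the number called moved from 5956 to 9749 for DU145 gRNA 10 with only the compared libraries, and from 5072 to 3335 for DU145 gRNA 2, where it was 3259 without control replicate 1 and 3329 without control replicate 3. With gRNA 2 replicate 3 left out it was 6958. The cause of these shifts was not tested.

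Leaving out 1 library at a time, the number of members called ran from 2 to 3 for 22Rv1 gRNA 10, 2 to 8 for DU145 gRNA 2, 1 to 6 and 3 to 7 for the guide comparisons in 22Rv1 and DU145, 3 to 5 and 5 to 7 for the gRNA 10 effect in PC3 against 22Rv1 and DU145, and 5 to 9 for the gRNA 2 effect. Signs changed within these ranges of log2 fold change: in 22Rv1 gRNA 1, DNMT3A -0.12 to 0.10, DNMT3B -0.098 to 0.27, MBD2 -0.099 to 0.039 and UHRF1 -0.058 to 0.096; in 22Rv1 gRNA 10, MBD2 -0.028 to 0.069, TET1 -0.081 to 0.16 and TET3 -0.046 to 0.058; in DU145 gRNA 2, DNMT1 -0.21 to 0.055, DNMT3B -0.069 to 0.036 and UHRF1 -0.24 to 0.17; in DU145 gRNA 10, TET1 -0.083 to 0.0085; and in PC3 gRNA 2, TET2 -0.21 to 0.010. Between guides the ranges were -0.032 to 0.11 for MBD2 in 22Rv1 and -0.12 to 0.12 for TDG in DU145. For the gRNA 10 effect they were -0.031 to 0.061 for MBD2 in PC3 against 22Rv1, and -0.20 to 0.032 for TET1 and -0.057 to 0.097 for TET2 in DU145 against 22Rv1.

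Between libraries with the same replicate number, correlations of the deviations from the group means ran from -0.41 to 0.57. Libraries with different numbers were not compared, and library names number some replicates otherwise than the titles. Whether the samples are paired is thus not settled, and the fit reported used no pairing. With the replicate block 158 of 160 values, those of RIPK2 included, stayed on their side of the threshold. DNMT3B passed between the 22Rv1 guides (0.41, adjusted p = 0.0406) and for the gRNA 2 effect in PC3 against DU145 (0.47, adjusted p = 0.0425). Depth limits TET1 most, which had 23 to 67 counts per library in the DU145 control and gRNA 2 groups.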
